A study of Mus musculus with 14 samples.

Results

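Hearts transplanted between mice of one strain heal in without an immune response to foreign tissue, yet they are cut, chilled and reperfused, and cells can be recovered from them. The comparison described here set the microRNAs of such recovered cells, named graft-infiltrating lymphocytes (GILs) in the study, against those of whole syngeneic grafts. Its members were chosen by sample label: 3 GIL pools and 3 whole-heart pools from syngeneic transplants, which is 6 of the 14 samples of the series. In both groups C57BL/6 hearts had been placed in C57BL/6 recipients, so the groups share donor and recipient strain and neither carries a rejection label. The GILs were taken on day 5 after transplantation and the hearts on day 7. The mice were 8 to 10 weeks old, and each sample pooled RNA of 3 animals, 100 ng from each. How the cells were released from the grafts and whether they were sorted are not given in the sources used here. The other samples are 3 GIL and 3 heart pools from BALB/c hearts placed in C57BL/6 mice, taken on the same days as their syngeneic counterparts and described as rejected, 1 pool of normal BALB/c hearts and 1 pool of PBMC (mononuclear cells of peripheral blood) from normal C57BL/6 mice. Day, tissue and deposited table changed together, and so did the day of the run, so these cannot be told apart. A pool averages its animals, and nothing shows that animals differ less than pools, so each test measures the spread between pools only.

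MicroRNAs are short RNAs that guide a silencing complex to messenger RNAs, mainly through the seed, bases 2 to 8 from the 5′ end. Several are made almost wholly by one cell lineage, and their level in a mixed sample follows both how many such cells it holds and how much each cell makes. In a heart, cardiac muscle supplies miR-1, miR-133 and the miR-208 and miR-499 group encoded inside myosin heavy chain genes, endothelium supplies miR-126, fibroblasts and other mesenchymal cells supply miR-199a and miR-214, and blood cells bring miR-142, miR-150 and miR-223. A whole graft also contains its own infiltrate, so the tissues compared overlap.

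The mature sequences that the results turn on are printed from RefSeq (build GRCm38.p6), 5′ to 3′, with the seed in capitals. The first set comes from the imprinted Dlk1-Dio3 region of chromosome 12 and held large excesses in the GIL pools. Its members have different seeds.
miR-379: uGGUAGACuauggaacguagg
miR-495: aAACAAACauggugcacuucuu
miR-494: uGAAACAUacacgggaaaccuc
miR-410: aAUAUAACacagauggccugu
miR-127: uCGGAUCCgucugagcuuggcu

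The next set contains families in which members of one seed were all lower in the GIL pools: miR-29 (29a to 29c), miR-30 (30a, 30c and 30e, with miR-384-5p of the same seed) and the myosin-encoded miR-208 (208) and miR-208b.
miR-29a: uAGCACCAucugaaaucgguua
miR-29b: uAGCACCAuuugaaaucaguguu
miR-29c: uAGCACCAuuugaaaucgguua
miR-30a: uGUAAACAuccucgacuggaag
miR-30c: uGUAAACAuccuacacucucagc
miR-30e: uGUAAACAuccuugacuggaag
miR-384-5p: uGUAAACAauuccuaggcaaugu
miR-208: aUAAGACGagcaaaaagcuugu
miR-208b: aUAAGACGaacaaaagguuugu

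The last set shows pairs that share a seed or a hairpin and whose readings came apart.
miR-221: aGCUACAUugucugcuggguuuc
miR-222: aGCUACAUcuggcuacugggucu
miR-10a: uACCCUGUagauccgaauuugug
miR-10b: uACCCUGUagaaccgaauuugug
miR-342-3p: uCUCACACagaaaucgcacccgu
miR-342-5p: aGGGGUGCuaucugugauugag

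Each sample was run on 1 TaqMan rodent microRNA card, on which 375 wells or well groups hold real-time PCR assays for microRNAs, 335 with mouse and 40 with rat names. The reading is the threshold cycle (Ct), the PCR cycle at which the product becomes visible, so it falls as the level rises, by close to 1 cycle for each log2 unit. An assay counted as detected below Ct 35. The GIL cards detected 204 to 221 assays and the heart cards 240 to 260, and 103 were detected on none of the 6. The cards were scaled to the mean Ct of the 192 microRNA assays detected on all 6. This reference lay at 25.58, 26.59 and 25.82 on the GIL cards and at 22.04, 23.03 and 23.48 on the heart cards, a mean difference of 3.15 cycles from an equal stated RNA input. Levels below are log2 units above or below that reference, and a difference is GIL minus heart. Because the GIL cards ran later, their detection limit after scaling was −9.42, −8.41 and −9.18, against −12.96, −11.97 and −11.52 on the heart cards, so a rare microRNA could be measured more deeply in hearts. Levels on the 192 shared assays correlated at 0.976 to 0.985 between GIL cards, at 0.988 to 0.993 between heart cards and at 0.83 to 0.849 between a GIL and a heart card, as a description across assays that share a card design. By these correlations no card stood apart from its group.

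The GIL pools and the whole hearts differed at most assays tested. Of 234 assays detected on all 3 cards of at least 1 tissue, 140 were called at an adjusted p under 0.05 (limma, Benjamini-Hochberg), which is 59.8%. In the GIL pools 56 were higher (23.9%) and 84 lower (35.9%). Entry through 1 tissue favours calls toward it. Only through the hearts entered 16 assays on 0 and 24 on 1 or 2 of 3 GIL cards. Through the GIL cards alone entered 1 on 0 and 1 on 1 or 2 of 3 heart cards. When only the 192 assays on all 6 cards were tested, 63 were called higher and 68 lower, with a median difference of −0.17. A difference of at least 2 log2 units was called for 22 in the higher direction (9.4%) and 38 in the lower (16.2%). The 3 GIL values lay wholly above the 3 heart values for 63 assays (26.9%), wholly below for 96 (41.0%), and overlapped for 75, so that values stood apart for 67.9%. The median difference over all assays tested was −0.39, the value against which each list below is read, and the median SE was 0.29. The split into higher and lower calls moved with scaling. Of the 140 calls 56 were higher in the GIL pools, against 24 of 88 with MammU6, 37 of 132 with snoRNA135 and snoRNA202 and 37 of 145 with the median of the reference assays, which shifted the median of all assays by −0.3, −0.29 and −0.38. In the other direction, 55 of 128 were higher with snoRNA202 alone and 65 of 136 with quantile scaling, with shifts of 0.12 and 0.23. In all, 24 higher and 50 lower calls passed under all 6 scalings, and 3 lower calls changed sign under at least 1 of them.

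**Figure D1:**
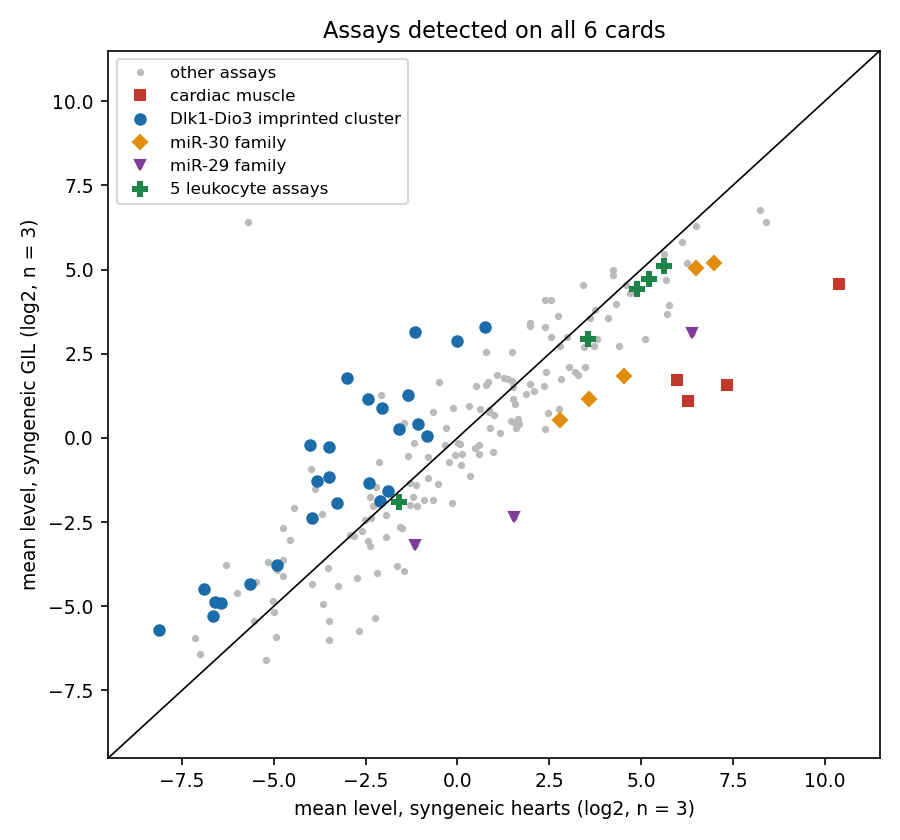
Mean level of the 192 assays detected on all 6 cards in the 3 whole-heart pools (x axis) and the 3 GIL pools (y axis), in log2 units relative to their mean on the card. Points above the diagonal were higher in the GIL pools and include the Dlk1-Dio3 assays, the cardiac muscle, miR-29 and miR-30 assays lie below it, and 5 leukocyte assays lie close to it.

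The cardiac muscle microRNAs showed the largest deficit of any list, by its median, in the GIL pools, but they did not disappear from them. All 8 tested assays of the list were called lower (35.9% of all assays were), with differences of −8.26 to −4.28 and a median of −5.48, and 7 were called under all 6 scalings. Of these 8, 4 were detected on all 6 cards, and all 4 were called lower, with a median of −5.48. The rest were tested only because the hearts detected them, which favours a lower call. miR-133a, which restrains growth and smooth muscle genes in heart muscle, had levels of 4.38, 4.28 and 5.01 on the GIL cards and 9.97, 10.41 and 10.77 on the heart cards. The groups did not overlap, and the difference of −5.83 (SE 0.31) is 56.8-fold (limma adjusted p = 3.69e-05). miR-1, made from the same primary transcripts, had 1.13, 1.07 and 1.08 against 5.73, 6.65 and 6.48. All GIL pools were low and close together, and the difference was −5.19 (SE 0.28, limma adjusted p = 3.69e-05). The software had marked 1 of these GIL wells, and with marked wells taken as undetermined the miR-1 call was lost. The rat-named miR-1 assay gave −4.28 and miR-133b gave −5.78.

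The microRNAs encoded inside myosin genes lay nearer to the detection limit. miR-499 was detected on 1 of 3 GIL cards and had levels of 0.01, 0.31 and 0.51 in the hearts. miR-208, from the gene of the adult alpha myosin heavy chain, was detected on 2 of 3 GIL cards and had −2.31, −2.13 and −1.99 in the hearts. miR-208b, from the beta myosin gene, was detected on 0 of 3 GIL cards and had −4.22, −4.73 and −3.93 in the hearts, at least 26.2-fold higher there. miR-490 was likewise on 0 of 3 and at least 147-fold higher in the hearts. Each GIL card thus detected 5 of the 8 muscle assays, while the PBMC card detected 3 and the normal heart card 8.

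The 5 leukocyte assays used as markers here were not higher in the GIL pools than in whole hearts. miR-142-3p, found throughout blood cells, had levels of 4.98, 3.97 and 4.28 on the GIL cards and 5.05, 5.08 and 4.52 on the heart cards. The ranges overlapped, and the difference of −0.47 (SE 0.33) was not called (limma adjusted p = 0.253). Its other arm, miR-142-5p, differed by −0.29 and was not called either. miR-150, a microRNA of mature lymphocytes that targets Myb, had 5.00, 5.02 and 5.31 against 5.58, 5.78 and 5.53. All hearts were above all GIL pools, and the difference of −0.52 (SE 0.19) missed the threshold (limma adjusted p = 0.054). miR-342-3p, also of lymphocytes, had 3.51, 2.50 and 2.85 against 3.07, 4.02 and 3.62, overlapped, and was not called. The neutrophil and monocyte microRNA miR-223 had 5.80, 4.16 and 4.20 against 4.44, 5.72 and 5.53, with 1 GIL pool highest of all and the others below every heart. The differences of these 5 assays, −0.62 to −0.29, lie near the median of all assays. Other lymphocyte and myeloid assays did not. miR-342-5p at −6.68 and miR-511 at −6.73 were both on 0 of 3 GIL cards and called lower, and miR-147 at 1.53 was called higher. In bulk samples, fewer cells of a type and less RNA per cell cannot be told apart.

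Ratios within a card need no scaling and show how far the GIL pools stood from blood cells. The mean Ct of miR-1 and miR-133a minus the mean Ct of 5 leukocyte assays was 0.72, 0.05 and −0.07 on the GIL cards and −4.5, −4.7 and −5.18 on the heart cards. The GIL mean of 0.23 ± 0.43 (SD, n = 3) exceeded the heart mean of −4.79 ± 0.35 (SD, n = 3) by 5.03, which is 32.6-fold, with no overlap. An exact permutation test of 3 against 3, two-sided, gave p = 0.1, the smallest it can give. The PBMC card stood at 10.33 and the normal heart card at −7.64. Against the endothelial miR-126 arms the GIL cards exceeded the hearts by 1.33, with PBMC at 6.07 and the GIL mean at −1.8 ± 0.6 (SD, n = 3). Against miR-143 and miR-145 of smooth muscle they differed by 0.08 (exact permutation p = 0.9), with PBMC at 8.56. Against miR-199a-3p and miR-214 the GIL cards stood below the hearts, at −1.27 ± 0.51 against 0.64 ± 0.65 (SD, n = 3 each), a difference of −1.91. PBMC stood at 13.12 or more there, a lower bound, since miR-214 was undetermined on that card and taken at the limit. By these markers the preparations labelled lymphocytes held less heart muscle microRNA, relative to leukocyte ones, than the whole hearts did. Relative to leukocyte microRNAs they still carried heart muscle, endothelial, smooth muscle and mesenchymal ones far above PBMC. For this reason they are called GIL preparations or pools here. The part of heart muscle, endothelial, smooth muscle and mesenchymal cells in the differences below was not tested.

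**Figure D2:**
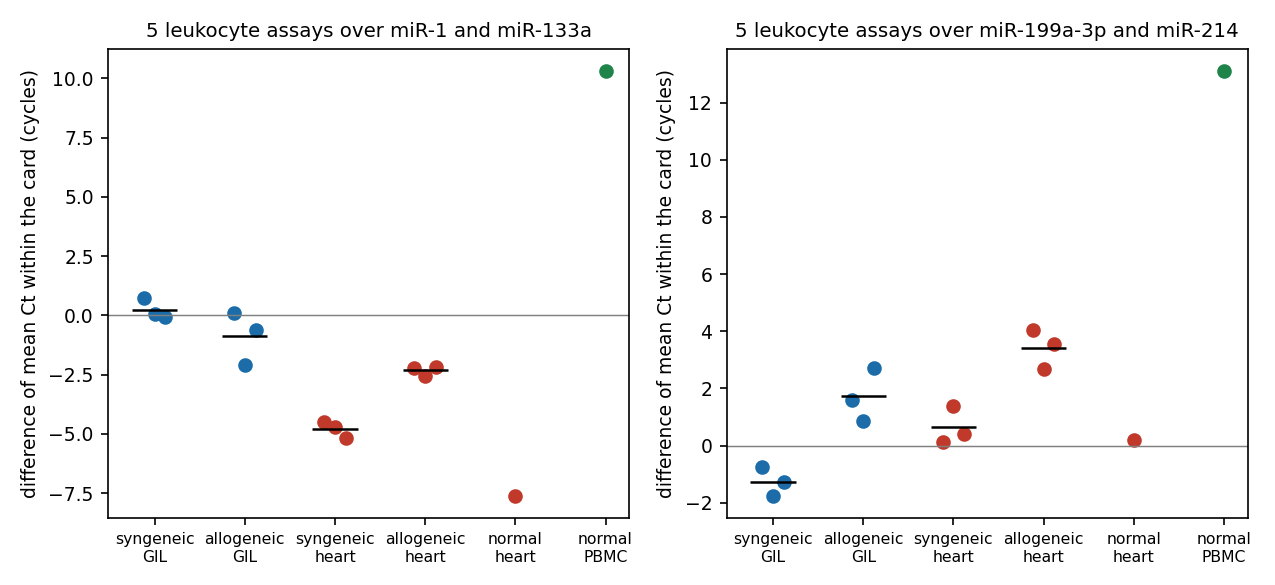
Ratios within each card (mean Ct of the named assays minus mean Ct of 5 leukocyte assays, in cycles, y axes) in 6 groups of samples (x axes), with 1 dot per card and bars at group means, over miR-1 and miR-133a (left) and over miR-199a-3p and miR-214 (right). On the left the syngeneic GIL cards lie between −0.07 and 0.72, above the syngeneic hearts at −5.18 to −4.5 and below the single PBMC card at 10.33, and on the right they are the lowest group, with a mean of −1.27, and the PBMC dot is a lower bound.

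MicroRNAs of immune activation were mostly lower in the GIL pools. Of 5 tested, 3 were called lower (35.9% of all assays were) and 1 higher (23.9%), with a median of −1.05. miR-155, induced in activated lymphocytes and macrophages, had levels of 0.76, 0.66 and 1.14 in the GIL pools and 2.29, 3.25 and 2.73 in the hearts. Every heart was higher, by 1.91 on average (SE 0.3, limma adjusted p = 0.00254). miR-146a, an NF-κB target that damps Toll-like receptor signalling, had 3.60, 3.46 and 3.94 against 5.66, 5.98 and 5.52, again without overlap, a difference of −2.06 (SE 0.23, limma adjusted p = 0.000496). Its seed sibling miR-146b differed by −0.05 and overlapped. miR-21, common in injured and fibrotic tissue, differed by −1.05, a call that changed sign with quantile scaling. miR-132 was the exception, at 3.37, 3.25 and 3.36 in the GIL pools against 2.13, 1.89 and 1.95, a called excess of 1.33 (SE 0.17, limma adjusted p = 0.00101). With MammU6 scaling 2 of the list were called lower and 0 higher.

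The lymphoid and myeloid lists showed no common excess. All 4 tested assays of miR-181 and miR-26, families of lymphoid development and resting cells that heart tissue also expresses, were called lower, with a median of −1.61 and a largest difference of −2.14 for miR-181c. In the myeloid list miR-147 was called higher at 1.53, a call lost without GIL pool 1 or GIL pool 2 or heart pool 3 and kept under 3 of 6 scalings, and miR-511 was detected on 0 of 3 GIL cards and called lower. Of the erythroid microRNAs, miR-451 had −1.99, −1.38 and −2.40 in the GIL pools and 1.23, −1.53 and −0.12 in the hearts, which overlapped, and miR-486 was on 0 of 3 GIL cards and at least 55.6-fold higher in the hearts. Of the miR-183 cluster 1 of 3 was called lower, near the 35.9% of all assays, and this was 0 without heart pool 3 and 2 without GIL pool 3.

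Vascular and stromal microRNAs split. Both miR-126 arms, from the endothelial gene Egfl7, were called lower, miR-126-5p with 2.62, 3.00 and 3.24 against 5.07, 5.05 and 5.25. No GIL pool reached a heart, and the difference was −2.17 (SE 0.22, limma adjusted p = 0.000394). For miR-126-3p the difference of −1.47 changed to 1.04 with quantile scaling. The smooth muscle microRNAs miR-143 and miR-145 differed by −0.92 and −0.20 and were not called. Mesenchymal microRNAs were higher in the GIL pools: miR-214 had 3.91, 4.67 and 3.74 against 2.80, 1.87 and 2.51, without overlap, a difference of 1.72 (SE 0.36, limma adjusted p = 0.00794). miR-199a-3p, from the same host transcript Dnm3os, had 4.55, 4.34 and 4.73 against 3.62, 3.06 and 3.55, a difference of 1.13 (SE 0.23, limma adjusted p = 0.00767). Both calls were lost when the cards were scaled to MammU6. The third assay, miR-199a-5p, was on 3 of 3 GIL cards but 1 of 3 heart cards and was not called. miR-210, the microRNA induced by low oxygen, had 4.55, 3.86 and 3.86 against 2.95, 2.34 and 2.34, a called excess of 1.55 that changed sign when its 1 marked GIL well was taken as undetermined.

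The miR-29 family, whose targets include collagens, was lower in the GIL pools in each member. miR-29c had levels of −2.32, −2.42 and −2.28 there and 1.52, 1.24 and 1.89 in the hearts. The groups stood far apart, with a difference of −3.89 (SE 0.22), which is 14.8-fold (limma adjusted p = 4.29e-05). miR-29a had 3.05, 2.96 and 3.33 against 6.34, 6.24 and 6.56, a difference of −3.27. miR-29b, with the same seed, differed by −2.03, so the members ran from 4.08-fold to 14.8-fold. All 3 passed under all 6 scalings.

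The miR-30 family, whose targets include the connective tissue growth factor, was lower in all 5 members tested, with a median of −2.25. miR-30a had 1.93, 1.74 and 1.89 in the GIL pools and 4.27, 4.51 and 4.86 in the hearts, a difference of −2.70 (SE 0.22, limma adjusted p = 0.00016). The differences of the others were −2.40 for miR-30e, −2.25 for miR-30d, −1.79 for miR-30c and −1.44 for miR-30b, and the miR-30b call was lost with quantile scaling. miR-384-5p, which has the miR-30 seed but lies elsewhere in the genome, was detected on 1 of 3 GIL cards and differed by −1.77. In the miR-23/27/24 group 3 of 4 tested were called lower (35.9% of all assays were), with a median of −1.55, and 2 with MammU6 or quantile scaling. In it miR-24 differed by −2.00, miR-27b by −2.11 and miR-27a by −1.10, while miR-23b at −0.43 was not called.

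**Figure D3:**
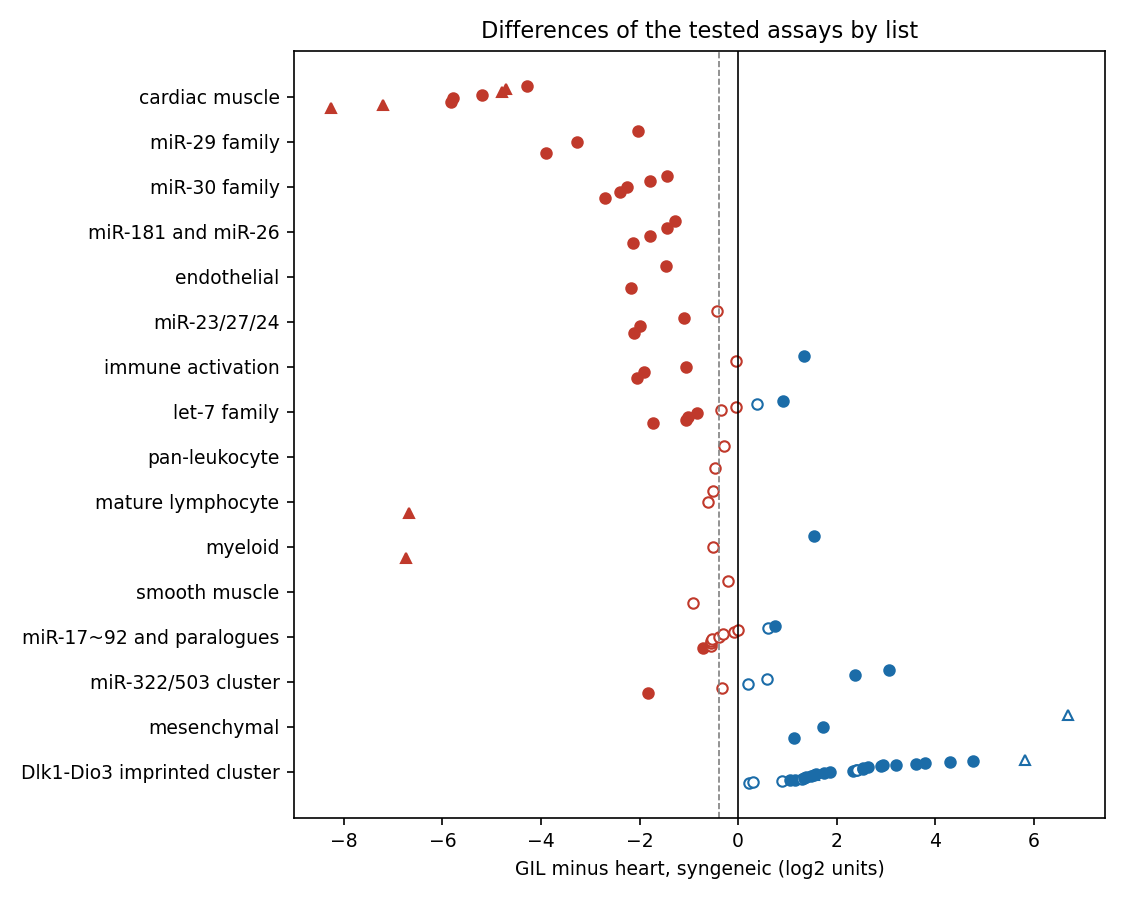
Difference in level, GIL minus heart in log2 units (x axis), of each tested assay in 16 of the microRNA lists (y axis), higher in blue and lower in red. Filled symbols passed limma's test, circles were detected on all 6 cards and triangles were not, and the dashed line marks the median of all tested assays at −0.39. The cardiac muscle, miR-29 and miR-30 assays are all left of the line, and the Dlk1-Dio3 assays all lie right of 0. The Dlk1-Dio3 assay farthest to the right, miR-667, rests on 2 marked GIL wells.

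The Dlk1-Dio3 cluster was higher in the GIL pools in most of its measured members. It is a run of microRNAs transcribed from the maternal copy of an imprinted region, high in embryo, placenta and brain and low in mature blood cells. Of 49 assays for it on the card, 28 could be tested and 22 of these were called higher (23.9% of all assays were) and 0 lower. The differences ran from 0.23 to 5.82 with a median of 2.1, and 14 passed under all 6 scalings, MammU6 alone leaving 14 called. The 5.82 belonged to miR-667 and rests on 2 marked GIL wells. With marked wells taken as undetermined, 21 of the list were called higher and 1 lower. Of the 26 detected on all 6 cards, 21 were called higher. The mean level of those 26 was −1.39, −1.11 and −0.99 on the GIL cards and −3.24, −3.27 and −3.47 on the heart cards. The 21 not tested comprised 14 seen on none of the 6 cards, 2 seen on more GIL cards and 5 seen on more heart cards. The PBMC card detected 9 of the 28 tested assays and the normal heart card 26.

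miR-379 had levels of 2.92, 3.36 and 3.17 in the GIL pools and −1.0, −1.24 and −1.19 in the hearts. The pools of each tissue were tight and far apart, and the difference of 4.29 (SE 0.2) is 19.6-fold (limma adjusted p = 2.6e-05). miR-495 had 1.10, 2.24 and 1.96 against −2.97, −3.05 and −2.97, which is 27.2-fold (difference 4.76, SE 0.32, limma adjusted p = 7.95e-05). GIL pool 1 was the lowest of its group and still above every heart. miR-494 had 1.21, 1.34 and 0.92 against −1.67, −2.92 and −2.75, a difference of 3.60. miR-410, at the far end of the cluster, had −0.47, −0.09 and −0.09 against −3.82, −4.09 and −4.12, a difference of 3.79, with 1 marked GIL well. miR-127, which lies antisense to and cleaves the retrotransposon-derived gene Rtl1, had 3.07, 3.62 and 3.18 against 0.89, 0.86 and 0.52, a difference of 2.53. No GIL value of these members fell within the heart range. Others called were miR-337-5p at 3.21, miR-409-3p at 2.93, miR-411 at 2.89, miR-434-3p at 2.63, miR-543 at 2.54 and miR-376a at 2.34. The 6 not called were miR-136 at 0.23, the rat-named miR-381 at 0.31, miR-382 at 0.88, miR-380-5p at 1.3, miR-329 at 2.42 and miR-667 at 5.82.

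These microRNAs were listed together for their position, so their shared location was set by the list and is not a result. In all, 25 of the 28 matched a RefSeq mature sequence, all on the plus strand of chromosome 12 between chr12:109585818-109743784 (GRCm38.p6), a span of 158 kb, and they carried 25 different seeds. Chromosome 12 held 17.4% of all 172 tested assays that matched. It held 48.8% of the 41 called higher, 3.23% of the 62 called lower and 11.6% of the 69 not called. These shares count the listed members again and are no separate support. The median GC content of the mature sequence was 47.8% among those called higher and 40.9% among those called lower, against 45.5% among those not called, given as a description.

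**Figure D4:**
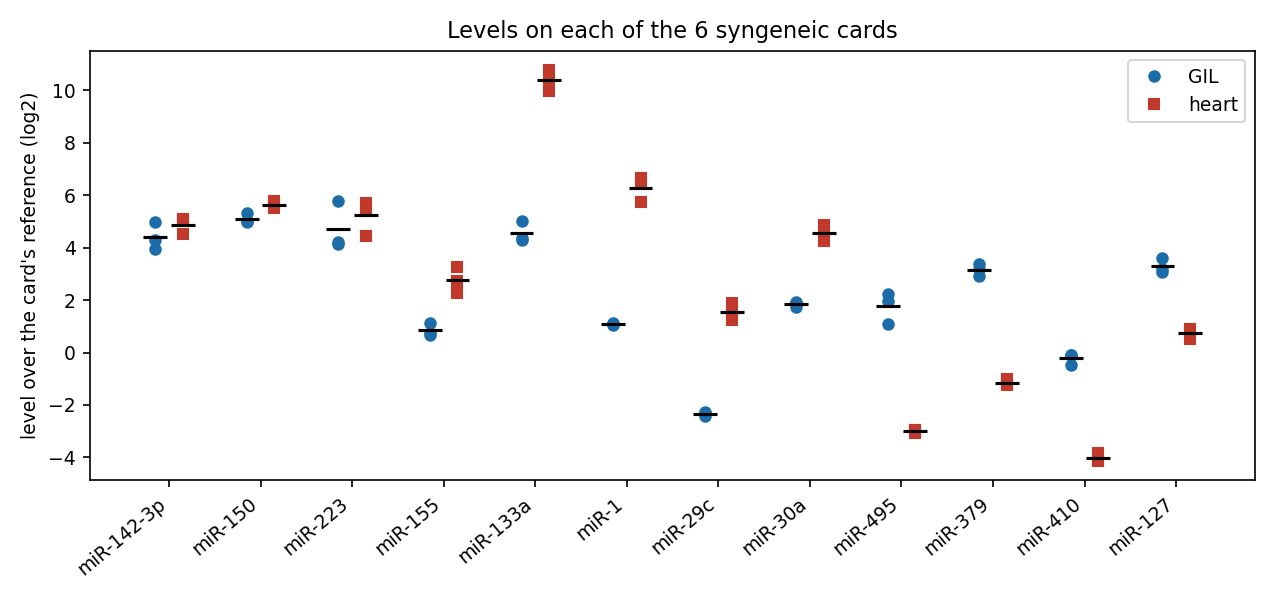
Level of selected microRNAs on each of the 6 cards, in log2 units relative to the card's reference (y axis), with GIL cards as circles, heart cards as squares and bars at the means of 3. The miR-133a and miR-29c levels are higher on all heart cards, miR-379 and miR-495 on all GIL cards, and the miR-142-3p ranges overlap.

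Other clusters and families were mixed, and most of their counts were near the shares of all assays (23.9% higher and 35.9% lower) or depended on a pool or a scaling. Of 11 tested members of the miR-17 to miR-92a clusters, which drive lymphocyte proliferation, 1 was called higher and 1 lower, with a median of −0.39 equal to that of all assays. The count was 0 and 4 without GIL pool 1, 0 and 0 without GIL pool 3, heart pool 2 or heart pool 3, and 0 and 5 with median scaling. In the let-7 family 1 was called higher and 4 lower of 8, which became 0 and 1 with MammU6, and without GIL pool 3 or any 1 of the heart pools none was called higher. In the miR-15/16 family the count was 1 and 2 of 6, and 0 and 1 without GIL pool 2, GIL pool 3, heart pool 2 or heart pool 3. The miR-125 and miR-99 list had 2 each way of 7, and 1 each way without GIL pool 3, heart pool 2 or heart pool 3. The list of miR-130 and miR-301 had 0 higher and 2 lower of 4, and 0 lower without heart pool 3 or with MammU6. In the X-linked cluster of miR-322 and miR-503, miR-450a-5p was higher, at −2.14, −1.85 and −2.23 against −4.60, −4.22 and −4.49, and the rat-named miR-351 assay was higher by 3.06, while miR-503 differed by −1.82 and miR-322 by −0.33. From the miR-34 family, miR-34b-3p and miR-34c, which share a transcript, were higher by 2.16 and 2.37, and miR-34a, from another gene, differed by −0.03 and overlapped. The Sfmbt2 intron cluster had 0 higher and 4 lower of 6 tested, with a median of −2.45, but 2 lower without GIL pool 2, GIL pool 3 or any 1 of the heart pools. Of its 3 assays on all 6 cards, 2 were called lower.

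Some pairs of microRNAs that share a seed or a hairpin came apart. miR-221 had 2.49, 2.87 and 2.31 in the GIL pools against 1.17, 0.61 and 0.51 in the hearts, a called excess of 1.79. That call was lost with MammU6 scaling. By contrast miR-222, from the same transcript and with the same seed, had 3.95, 3.55 and 3.88 against 3.35, 4.01 and 3.93 and overlapped. miR-10b was detected on 2 of 3 GIL cards and differed by −6.19, whereas miR-10a, which has the same seed, differed by −0.15. Of 18 hairpins with both arms tested, 12 had both on all 6 cards, and in 7 of these the arms differed in the same direction, with a median gap of 0.88. The arms of miR-125a were 2.08 for the 3p and −0.38 for the 5p, and those of miR-335 were 1.42 and −0.05. miR-342-5p was undetermined in all GIL pools and had −2.25, −2.16 and −2.56 in the hearts, at least 103-fold higher there, while miR-342-3p differed by −0.62 and was not called. Mouse- and rat-named assays for miR-224 gave 1.88 and 3.35. Those for miR-532-5p gave 0.81 and, with 1 of 3 GIL cards detected, −5.86.

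Detection on one side only was mostly in favour of the hearts. The heart cards also reached deeper, and the part of depth in this was not tested. In all, 16 assays were on 3 of 3 heart cards and 0 of 3 GIL cards, and 14 of them were called. The largest bound was for miR-425, with levels of 1.94, 1.84 and 1.01 in the hearts, at least 1555-fold higher there. Its neighbour in the genome, miR-191, was on all 6 cards and differed by −0.98. The PBMC card detected miR-425 at Ct 19.05, and it was on 1 of 3 allogeneic GIL cards and 3 of 3 allogeneic heart cards. The miR-425 bound takes every GIL well as read correctly, which was not tested. Others were miR-200a at 75.5-fold or more, an epithelial microRNA, miR-187 at 33.7-fold or more, miR-193 at 23.8-fold or more and miR-467d at 23.2-fold or more. Of 5 tested epithelial microRNAs 2 were called lower, near the 35.9% of all assays, and 0 higher, but without GIL pool 2 there were 2 each way, with a median of 0.59. The reverse pattern held for 1 assay, miR-124, known for neurons, with levels of −2.66, −1.69 and −2.42 in the GIL pools and 0 of 3 hearts, at least 951-fold higher in the GIL pools. Further high values among assays on every card were miR-685 at 2.57, miR-196b at 2.54 and miR-224, and further low ones miR-547 at −3.09, miR-135a at −3.05, miR-467a at −2.50 and the rat-named miR-190b at −2.50. The largest difference of all, 12.11 for miR-741, rests on 3 marked GIL wells and became −3.23 when marked wells were taken as undetermined.

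Little or no difference was measured for another group. The smallest differences among assays on all 6 cards belonged to miR-152, miR-92a, miR-672, miR-222, miR-34a, miR-350, let-7c, miR-146b, miR-335-5p and miR-484. miR-92a had 3.16, 2.95 and 2.88 in the GIL pools and 3.05, 3.02 and 2.91 in the hearts. The endogenous controls, which took no part in scaling, differed by 0.3 for MammU6, 0.71 for snoRNA135, −0.12 for snoRNA202, −0.25 for U87 and −0.26 for Y1.

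The same tissue difference was also measured in rejected allogeneic grafts, in which the donor strain differed too, and it was narrower for heart muscle and for the Dlk1-Dio3 cluster. With all 12 transplant cards scaled to 148 reference assays, the allogeneic difference minus the syngeneic one was called for 53 of 241 assays (22.0%), 27 positive (11.2%) and 26 negative (10.8%), by limma's adjusted p. The cardiac muscle list had a median difference of −5.26 in syngeneic and −1.74 in allogeneic grafts, and 5 of its 8 assays were called positive. For miR-133a the means were 3.84 in syngeneic GIL pools and 9.45 in syngeneic hearts, and 5.6 and 7.61 in the allogeneic ones. The tissue difference thus went from −5.61 to −2.01, an interaction of 3.6 (SE 0.48, limma adjusted p = 0.00119). The leukocyte over cardiac ratio in the allogeneic GIL cards was 0.11, −2.08 and −0.62, against 0.72, 0.05 and −0.07 in the syngeneic ones. In the allogeneic hearts it was −2.22, −2.56 and −2.16, against −4.5, −4.7 and −5.18 in the syngeneic hearts.

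The Dlk1-Dio3 median was 2.32 in syngeneic and 0.76 in allogeneic grafts, and 11 of 28 tested assays were called negative. Only 11 of the 28 were detected on all 12 cards, and 7 of those were called negative. The allogeneic GIL cards detected 24, 25 and 12 of the 49 listed assays, so the allogeneic median rests in part on values at the detection limit. For miR-495 the GIL means were 1.05 and −1.42 and the heart means −3.94 and −3.88, so the difference of 4.98 became 2.46 (interaction −2.53, limma adjusted p = 0.00725). All 5 miR-30 assays were called positive, with medians of −2.03 and −0.28, and miR-29c went from −3.67 to −1.29. For miR-142-3p the interaction of 0.22 was not called, and miR-150 went from −0.30 to 0.97 (interaction 1.27, limma adjusted p = 0.0496). miR-685 turned from 2.78 to −2.18. Of the 53 calls, 11 passed under all 6 scalings, among them 3 of the cardiac muscle list and 1 of the Dlk1-Dio3 list. That 1 was miR-382, which was detected on 1 of 3 allogeneic GIL cards. The 7 Dlk1-Dio3 calls detected on all 12 cards passed under at most 3 of 6 scalings, miR-495 among them under 3. Positive calls were 27 of 53, against 10 of 14 with MammU6, 21 of 28 with both snoRNAs and 23 of 30 with snoRNA202 alone, where the median interaction shifted by 0.67, 0.46 and 0.47. The count was 31 without syngeneic heart pool 2 and 30 without pool 3, and 63 without allogeneic GIL pool 3, whose reference lay at 28.19 and which detected 161 assays.

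**Figure D5:**
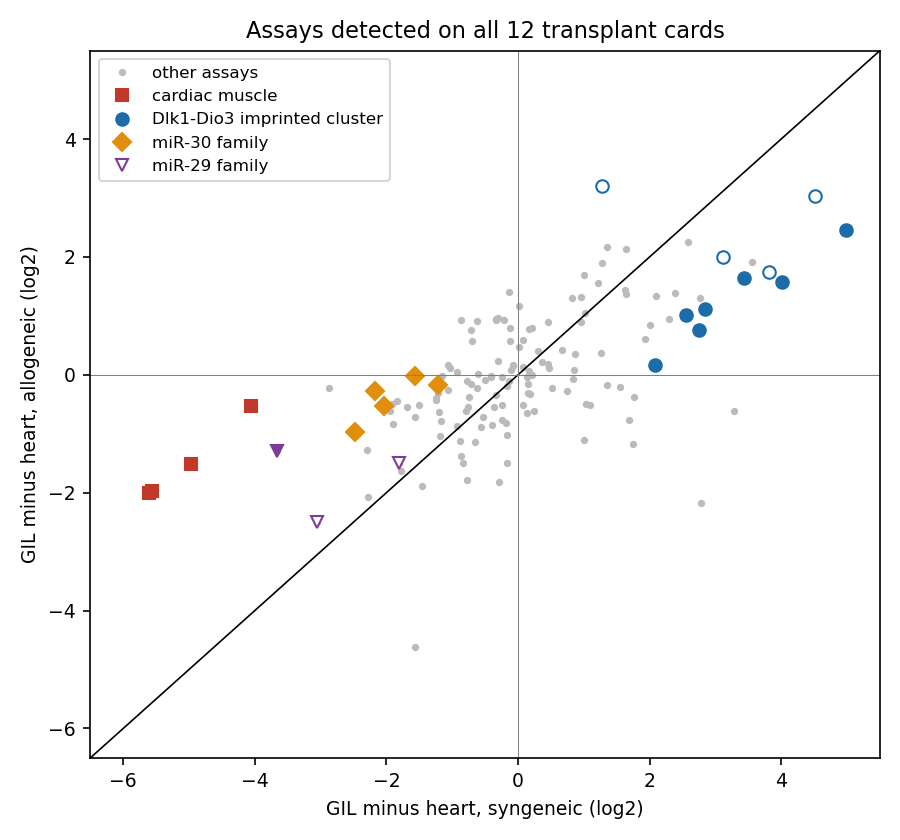
GIL minus heart difference of each assay in syngeneic grafts (x axis) and in allogeneic grafts (y axis), in log2 units relative to 148 reference assays, for assays detected on all 12 cards. Filled symbols of the named lists passed limma's test of the interaction, other assays are grey, and the filled cardiac muscle symbols lie above the diagonal while the filled Dlk1-Dio3 symbols, such as miR-495 (4.98 and 2.46), lie below it.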

How the data were processed

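RNA pools were run on TaqMan rodent microRNA cards, and the authors deposited Ct values exported from SDS 2.4, per the file headers. The baseline and threshold behind each Ct are not given in the sources used here. Deposited Ct values run opposite to log2 level. The deposited delta Ct, the difference from snoRNA202 on the card, was used only to check the Ct. Ct values at or after 35, and undetermined wells, were set to 35. The level was the mean Ct of the reference assays (microRNAs below 35 on all cards compared) minus the Ct. An assay was tested when below 35 on all cards of at least 1 group. R 4.3.3 with limma 3.58.1 (lmFit, eBayes) gave two-sided tests, and p-values were adjusted by Benjamini-Hochberg over every assay tested, with calls under 0.05. The fit was tested on simulated data. A value of "at least" sets the detected group against the detection limits of the other, whose spread is only that of the card references, and arrays give no counts, so their number limits the precision. Mature sequences came from a RefSeq table (GRCm38.p6), which matched 172 of the 234 tested assays by name.

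The comparison, its members and the microRNA lists were chosen with earlier results of these data known. Named assays were the 15 largest called differences each way detected on all 6 cards, the 10 largest one-sided bounds each way, list members, the 10 smallest differences, the controls, the 5 largest interactions each way, and arms, clusters and seed families with 2 or more members tested. miR-741 and miR-667 were singled out for their marked wells after their values were seen. Same-numbered pools did not deviate together (correlations −0.0988, −0.202 and −0.00212), so the replicate number was not used as a block. A single allogeneic heart well (1 of 384 on its card) carried a sample name unlike the rest and was left out. GIL cards were run on 1 day and syngeneic heart cards on 3 others.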

Additional observations from a re-analysis of the deposited data

Results flagged for a closer look

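The tissue difference (GIL minus heart) differed between allogeneic and syngeneic grafts for 53 assays by limma's interaction test, and those among the named lists and the largest interactions follow. Heart muscle assays had positive values, 3.6 for miR-133a, 3.59 for miR-133b, 3.46 for miR-1, 3.53 for the rat-named miR-1 and 4.96 for miR-499. The miR-499 value depends on the detection limit, since the assay was on 1 of 3 syngeneic and 2 of 3 allogeneic GIL cards, and 3 of 6 scalings called it. The miR-30 family gave 1.51 for miR-30a, 1.04 for miR-30b, 1.56 for miR-30c, 1.49 for miR-30d and 1.91 for miR-30e. Dlk1-Dio3 assays had negative values, −1.55 for miR-376a, −1.74 for miR-434-3p, −1.79 for miR-337-5p, −1.91 for miR-376c, −1.99 for miR-127, −2.39 for miR-434-5p, −2.43 for miR-410, −2.53 for miR-495, −3.56 for miR-543, −5.64 for miR-409-3p and −6.33 for miR-382. On the allogeneic GIL cards miR-382 was detected on 1 of 3 and miR-409-3p, miR-434-5p and miR-543 on 2 of 3, so these sizes depend on the limit too.

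Further values were −4.97 for miR-685 and −5.59 for miR-125b-3p, the latter set by the detection limit, since it was on 0 of 3 allogeneic GIL cards. For miR-211 (11.97), miR-187 (8.92) and miR-367 (4.17) a syngeneic group lay at the detection limit, so the sizes depend on that limit and no direction is read from them. For miR-187 both allogeneic groups were also on 0 of 3 cards, so its allogeneic difference holds only the unequal limits. The value of −11.74 for miR-741 rests on marked wells. Donor strain and rejection changed together between the graft types and cannot be told apart.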

How the results depend on the processing

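The count of 140 called tissue differences became 88 with MammU6 scaling, 63 when a difference had to exceed 1 log2 unit (limma's treat) and 248 with no filter, where undetected assays entered and the unequal detection limits alone gave excesses in the GIL pools. Leaving out 1 pool gave 110 to 139. The 53 interactions became 14 with MammU6, 28 with both snoRNAs, 30 with snoRNA202, 29 with no filter and 18 with 5 leukocyte microRNAs as reference, a setting chosen after seeing the data, and 30 to 63 without 1 pool. Called Dlk1-Dio3 assays became 14 with MammU6, and called miR-181 and miR-26 assays to 2 with the leukocyte reference. Without 1 pool, 1 to 3 assays were on GIL cards only and 16 to 23 on heart cards only. A replicate block gave 121 and 44 calls, and run day as a random block 150 and 58.

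With marked wells undetermined, let-7b became −3.09, miR-210 −3.03, miR-667 −8.99, miR-741 −3.23 and the miR-741 interaction 7.14. With quantile scaling miR-126-3p became 1.04, miR-16 0.84, miR-19b 0.70, miR-21 0.14 and miR-484 0.68. Without 1 pool miR-200b ran from −2.76 to 1.22, the latter without GIL pool 2. miR-96 became 1.62 with a limit of Ct 32, and the miR-367 interaction 0.00 with the floor set after scaling. Of 3619 other values for 152 named assays, 3297 stayed on the same side of the threshold with no called value changing sign. Uncalled values among them may have changed sign. A further 239 lost the call, 72 gained it, and 11 changed sign with a call before or after the change. The causes were not tested.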

Other observations

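Real-time readings near the middle of the range were not free of dropouts. Within the GIL group 12 assays, 8 of them tested, had 1 well below Ct 28 and another undetermined, and within the syngeneic hearts 17 had, 1 of them tested. Of 1389 Ct values on the 6 cards, 268 (19.3%) had a fraction of 0.9 or more, where equal spread over a cycle would give 10%, and heart pool 3 had 84 of 240. Wells with a Ct that the software had marked numbered 65, and 126 of the 140 called assays had none. miR-667 read Ct 12.79 and 12.53 in GIL pools 1 and 2, both marked, and was undetermined in the third, while the hearts read 22.27, 22.74 and 23.33.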
